A study of Mus musculus with 6 samples.

Results

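The lytic granule of natural killer (NK) cells was described through 10 genes: its cargo and membrane proteins, and the machinery that moves it to the cell surface and fuses it there. The members were every probe set whose annotated gene symbol was Lamp1, Rab27a, Unc13d, Stx11, Stxbp2, Lyst, Ctsw, Ctsc, Srgn or Nkg7. Each had 1 probe set, so that 10 of the 19938 genes represented on the arrays were members. Expression was measured on 6 Affymetrix arrays, 3 from cells labelled 15a/16-1FKO, the knockout (KO), and 3 from control cells labelled Ctrl. All cells were NK cells sorted as YFP+, CD27+, NK1.1+ and CD3- directly after harvest from spleens of C57Bl/6 mice of 8 to 12 weeks, and no other treatment or allele is named. The promoter behind the YFP mark and the number of mice behind each array are not given in the sources used here. The series' design describes the 3 arrays in each group as technical replicates, but sex-linked transcripts, given below, differed between arrays of a genotype. A p-value here reflects no spread other than that from array to array, and what part of it lies between mice is not known.

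NK cells kill by releasing lytic granules, which are secretory lysosomes loaded with perforin and granzymes, into the cleft formed with a target cell. Granules are carried to this contact, tethered to the plasma membrane by a RAB GTPase and its effector, and fused by a SNARE complex. Inherited loss of UNC13D, STX11 or STXBP2 in humans causes familial haemophagocytic lymphohistiocytosis, and loss of RAB27A or LYST causes Griscelli and Chediak-Higashi syndromes, in which killing by NK and T cells is impaired. The study's title names microRNA-15/16 and the transcription factor c-Myb, and the comparison asked here was how the granule genes stood in CD27+ NK cells of the genotype named for the loss of Mir15a and Mir16-1.

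The microRNAs encoded by the deleted locus are shown because their seed, bases 2 to 8 from the 5′ end, is what they use to recognise transcripts. RefSeq (GRCm38.p6) places mmu-miR-15a-5p at chr14:61632075-61632096 and the Mir16-1 copy of mmu-miR-16-5p at chr14:61631936-61631957, both on the minus strand. The mature sequences, with the seed in capitals, share 1 seed. The second copy of mmu-miR-16-5p, made from Mir16-2, lies outside the deleted locus.
mmu-miR-15a-5p: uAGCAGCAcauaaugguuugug
mmu-miR-16-5p: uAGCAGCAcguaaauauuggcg
Target sites for this seed in the transcripts of the granule genes were not analysed here.

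Promoter windows, from 250 bases before to 50 bases after an annotated start site in RefSeq's GRCm38.p6 table, were matched for 8 of the 10 genes, Rab27a and Srgn having 2 windows each. They were searched on both strands for 3 short motifs, whose matches can overlap each other in part. The first, CACGTG, is the core of the element bound by the lysosomal regulators TFEB and TFE3. It was found in 3 of the 10 windows, against 7.15% of the 32851 windows in the table. The window of Lamp1 (chr8:13158911-13159210, plus strand) held 4 copies, which began 61, 45, 28 and 15 bases before the start site. That many copies were found in 8 windows of the table, or 0.0244%. The window of Stxbp2 (chr8:3630859-3631158, plus strand) held 1 copy, 14 bases before the start site, and 1 of the windows of Rab27a also held 1. The sequences of both are given with CACGTG in capitals, since Lamp1 is a general lysosomal gene and Stxbp2 a gene of the fusion machinery.
Lamp1: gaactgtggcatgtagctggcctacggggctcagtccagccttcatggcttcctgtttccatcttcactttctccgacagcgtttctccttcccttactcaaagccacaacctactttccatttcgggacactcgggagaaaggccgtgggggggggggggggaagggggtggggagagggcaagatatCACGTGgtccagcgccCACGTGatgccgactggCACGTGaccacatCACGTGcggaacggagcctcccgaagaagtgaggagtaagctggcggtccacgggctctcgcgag
Stxbp2: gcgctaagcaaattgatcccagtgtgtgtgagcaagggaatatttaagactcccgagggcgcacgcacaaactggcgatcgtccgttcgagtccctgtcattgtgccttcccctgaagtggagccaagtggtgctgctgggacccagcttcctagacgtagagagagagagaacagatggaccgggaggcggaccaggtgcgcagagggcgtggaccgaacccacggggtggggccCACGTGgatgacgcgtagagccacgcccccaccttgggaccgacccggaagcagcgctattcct

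The second motif, AACNG, is the core bound by MYB. It was found in 8 of the 10 windows, against 80.3% of all windows. The third, TCACAC, is part of the site of T-box factors such as T-bet and EOMES, which drive NK development. It was found in 4 of the 10 windows, against 14.5% of all windows. Nkg7, a granule membrane gene used as a marker of killer lymphocytes, had 3 copies of the MYB core and 1 of the T-box motif in its window (chr7:43436888-43437187, plus strand). The windows of Lamp1, Stxbp2 and Srgn and window 2 of Rab27a also held 3 copies of the MYB core. Stxbp2 held 1 of the T-box motif as well, so these counts are not particular to Nkg7. The window of Nkg7 is given with the MYB core, read on either strand, in capitals. These matches describe letters in a window, and binding was not measured.
Nkg7: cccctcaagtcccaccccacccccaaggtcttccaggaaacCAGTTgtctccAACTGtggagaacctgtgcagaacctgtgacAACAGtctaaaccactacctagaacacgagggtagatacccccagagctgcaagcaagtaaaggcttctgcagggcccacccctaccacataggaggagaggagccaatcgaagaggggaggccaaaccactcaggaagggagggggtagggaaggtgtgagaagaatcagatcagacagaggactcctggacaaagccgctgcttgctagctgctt

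The deleted locus was read first. Mir15a averaged 3.77 ± 0.52 in knockout arrays and 6.62 ± 0.56 in control arrays (log2 level, SD, n = 3 each), a difference of -2.84 (limma adjusted p = 0.0296). Mir16-1 averaged 2.76 ± 0.21 in knockout arrays and 3.39 ± 0.33 in control arrays (SD, n = 3 each), a difference of -0.63 (limma adjusted p = 0.999), with both means under the background level described below (4.13). Its knockout arrays all lay below its control arrays (limma unadjusted p = 0.00922). With every mean under the background level, that probe set was not taken as a check of the deletion. Over all genes the threshold, a Benjamini-Hochberg adjusted p under 0.05 by limma, was passed by 3 genes in the positive and 1 in the negative direction. The 1 in the negative direction was Mir15a itself. The 3 in the positive direction share a chromosome with the deleted locus, while 0 of the 10 granule genes do. Arrays of 1 genotype correlated with r between 0.982 and 0.984 and arrays of different genotypes between 0.981 and 0.987 over 19938 genes, and no 2 arrays held identical values. Transcripts that depend on sex differed between the control arrays, with Xist at 9.65, 3.89 and 8.86 and Eif2s3y at 2.33, 7.95 and 6.29 in control replicates 1, 2 and 3. Repeats of 1 RNA would not differ this much, so the control arrays did not all carry the same RNA, whatever the design calls them. In knockout replicates 1, 2 and 3, Xist was at 7.56, 8.58 and 8.84 and Eif2s3y at 7.88, 6.6 and 6.18. Uty, on the Y chromosome, was at 5.82, 3.77 and 3.2 there, so the knockout arrays also differed in sex-linked transcripts. Xist and Eif2s3y were thus both above 4.13 on every knockout array, but among the controls only on replicate 3. Control replicate 1 had Eif2s3y and control replicate 2 had Xist under that level. The part of sex in the differences between the genotypes was not tested. Precision was set by the small number of arrays. In sorted bulk cells, fewer cells that express a gene and less RNA per cell cannot be told apart.

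No difference between the genotypes was detected for any of the 10 granule genes. At the shares of all genes given below, counts of 0 among 10 are not particular to them. Of the 10, 0 were higher and 0 lower past the threshold in the knockout (limma adjusted p = 0.999 for each), against 0.015% of all genes tested that were higher, 0.00502% that were lower and 0.0201% in either direction. An unadjusted limma p under 0.05 was reached by 0 of 10, against 3.47% of all genes, and knockout and control arrays were fully separated in 0 of 10, against 8.33% of all genes. The differences, knockout minus control on the log2 scale, lay between -0.11 and 0.23, with 5 positive, 5 negative and a median of -0.01. Of all genes tested, 47.9% had a positive difference. The median difference over all 19938 genes was also -0.01. In size, the differences of the granule genes had a median of 0.07 and those of all genes a median of 0.11. Every value of the 10 genes, the lowest being 5.52, lay above 4.13, the level under which 95% of 1027 olfactory receptor genes averaged, so the granule genes were measured above the array's background. Levels of different genes were not compared, because each probe set has its own brightness.

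**Figure D1:**
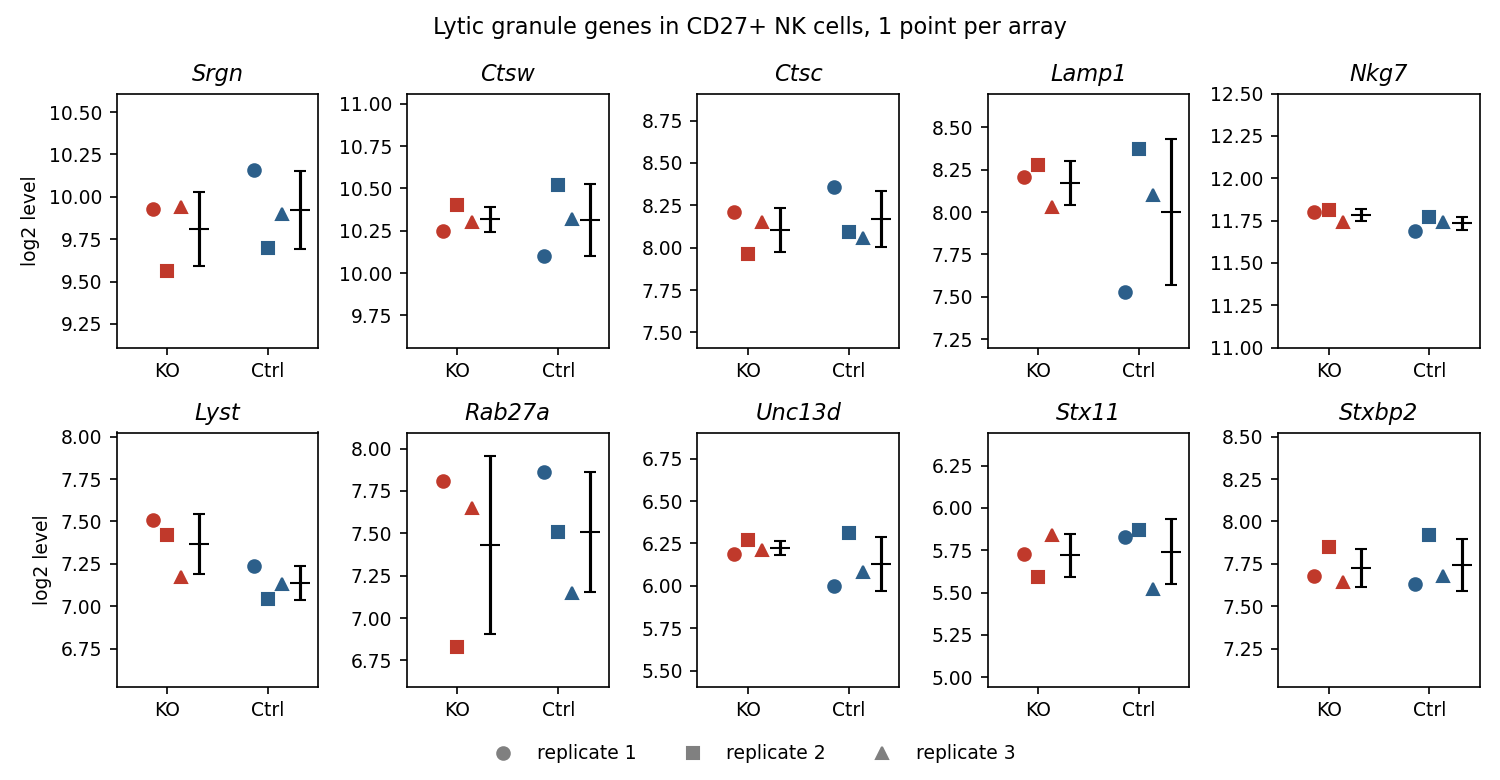
Log2 level of the 10 granule genes on each array (y axis, every panel spanning 1.5 log2 units) in knockout (KO, red, left) and control cells (Ctrl, blue, right). Symbols stand for replicates 1 to 3, and black bars give the mean ± SD of 3 arrays. The genotypes overlap in every panel, and the points of Rab27a and Lamp1 are the most spread.

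The cargo genes came first in the comparison. Srgn encodes serglycin, the proteoglycan whose chondroitin sulphate chains bind and store granzymes and perforin inside the granule. Its log2 level was 9.93, 9.56 and 9.94 in knockout arrays, against 10.16, 9.70 and 9.90 in control arrays. The lowest value was knockout replicate 2 and the highest control replicate 1, and the other 4 arrays lay between these extremes. The difference was -0.11 (SE 0.17, limma adjusted p = 0.999), and its 95% interval ran from 0.71-fold to 1.21-fold.

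Ctsw encodes cathepsin W, a papain-like protease found mainly in NK and cytotoxic T cells. It stood at 10.25, 10.40 and 10.30 in knockout arrays, against 10.10, 10.52 and 10.32 in control arrays. The lowest and the highest array were both controls, with the 3 knockout arrays between them. The difference was 0.00 (SE 0.15, limma adjusted p = 0.999), and the 95% interval of the ratio was 0.793 to 1.26.

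Ctsc encodes cathepsin C, also called dipeptidyl peptidase I, which removes the propeptides that keep granzymes inactive. Its level was 8.21, 7.96 and 8.15 in knockout arrays, against 8.36, 8.09 and 8.06 in control arrays. Knockout replicate 2 was the lowest and control replicate 1 the highest, as for Srgn. The difference was -0.07 (SE 0.15, limma adjusted p = 0.999), with a 95% interval of the ratio from 0.758 to 1.20.

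Among the membrane proteins of the granule, Lamp1 (CD107a) is the heavily glycosylated lysosomal protein whose appearance on the cell surface is used as a measure of degranulation. It was at 8.21, 8.28 and 8.03 in knockout arrays, against 7.53, 8.37 and 8.10 in control arrays. Control replicate 1 lay below the other 5 arrays, which spanned 8.03 to 8.37. The difference was 0.17 (SE 0.21, limma adjusted p = 0.999) with all arrays, and it was -0.06 without control replicate 1, so that its sign rested on that array. The 95% interval of the ratio was 0.817 to 1.56.

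Nkg7 encodes a tetraspanning protein of the granule membrane that promotes degranulation. It was the steadiest of the 10 genes, with 11.80, 11.81 and 11.74 in knockout arrays, against 11.69, 11.77 and 11.74 in control arrays. The 6 values spanned 0.12 on the log2 scale, with a pooled SD within genotypes of 0.04, while the median pooled SD over all genes was 0.20. The difference was 0.05 (SE 0.13, limma adjusted p = 0.999), and the 95% interval of the ratio was 0.85 to 1.26. That SE exceeds what the spread of Nkg7 alone would give, since limma shrinks single-gene variances toward a common value.

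Lyst encodes the large BEACH-domain protein that controls the size and number of lysosomes and lytic granules, and is mutated in beige mice. It had the largest difference of the 10 in size, 0.23 (SE 0.15, limma unadjusted p = 0.145, adjusted p = 0.999). Its level was 7.51, 7.42 and 7.17 in knockout arrays, against 7.24, 7.04 and 7.13 in control arrays. Knockout replicates 1 and 2 lay above all controls, while knockout replicate 3 lay below control replicate 1, so the genotypes overlapped. The 95% interval of the ratio was 0.936 to 1.47, and an exact two-sided permutation test of the 6 arrays gave p = 0.2, where 3 against 3 arrays cannot go below 0.1.

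Of the docking and fusion genes, Rab27a, the small GTPase that tethers granules at the plasma membrane, was at 7.81, 6.83 and 7.65 in knockout arrays, against 7.86, 7.51 and 7.15 in control arrays. The highest array was a control and the lowest, knockout replicate 2, a knockout, and no other granule gene spanned as much over the 6 arrays (1.03 on the log2 scale). The difference was -0.08 (SE 0.27, limma adjusted p = 0.999) and became 0.22 without knockout replicate 2 and 0.10 without control replicate 1. Its 95% interval, from 0.625-fold to 1.44-fold, was the widest of the 10.

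Unc13d encodes Munc13-4, a partner of RAB27A that primes docked granules for fusion. Its level was 6.19, 6.27 and 6.21 in knockout arrays, against 6.00, 6.31 and 6.08 in control arrays. All 3 knockout arrays fell between control replicates 3 and 2. The difference was 0.09 (SE 0.14, limma adjusted p = 0.999), and the 95% interval of the ratio was 0.86 to 1.33.

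Stx11 encodes syntaxin-11, a SNARE protein of the fusion step, and Stxbp2 encodes Munc18-2, which binds syntaxin-11 and stabilises it. Stx11 was at 5.73, 5.59 and 5.84 in knockout arrays, against 5.83, 5.87 and 5.52 in control arrays. Stxbp2 was at 7.68, 7.85 and 7.64 in knockout arrays, against 7.63, 7.92 and 7.68 in control arrays. In both genes the lowest and the highest array were controls. Both differences were -0.02 (SE 0.15 for Stx11 and 0.14 for Stxbp2, limma adjusted p = 0.999 each). The 95% intervals of the ratio were 0.779 to 1.25 for Stx11 and 0.789 to 1.24 for Stxbp2.

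**Figure D2:**
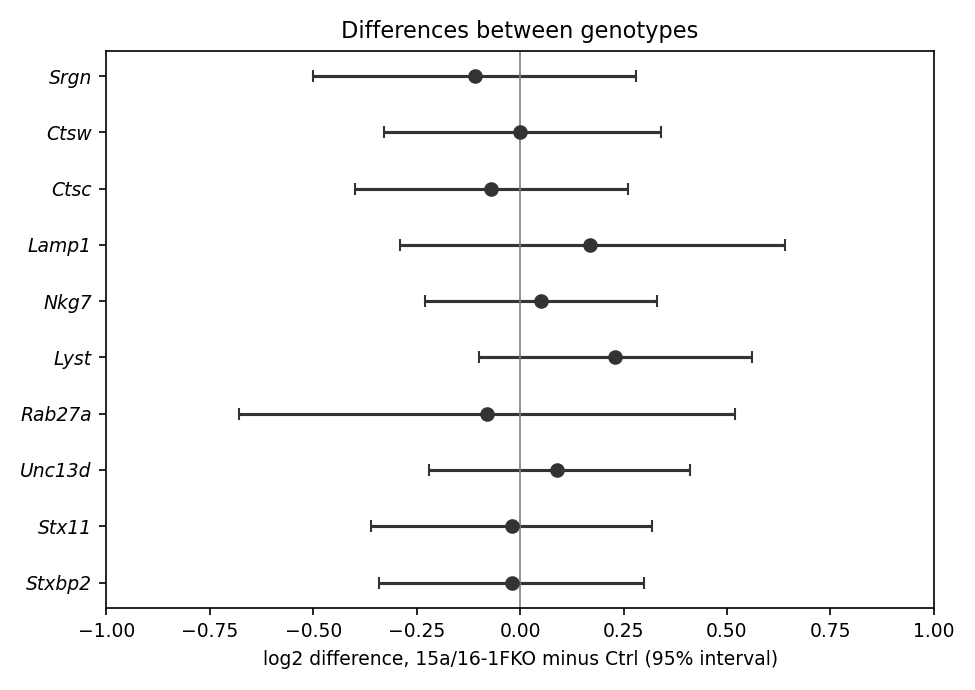
Log2 difference, knockout minus control, of the 10 granule genes (x axis) with 95% intervals from limma as bars, 3 arrays against 3. All 10 intervals cross 0, Rab27a has the widest and Lyst the largest difference in size, 0.23.

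The intervals set how large a difference these arrays could have missed. All 10 of the 95% intervals included 0. The largest change in either direction that an interval still held was 1.60-fold for Rab27a, 1.56-fold for Lamp1, 1.47-fold for Lyst and 1.41-fold for Srgn. For the other 6 genes it lay between 1.26-fold for Ctsw and Nkg7 and 1.33-fold for Unc13d. Each interval covers its own gene and is not adjusted for the number of genes.

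Within the genotypes, the granule genes differed in how the arrays were ordered. Among the controls, replicate 2 was highest and replicate 1 lowest for Lamp1, Nkg7, Ctsw, Unc13d and Stxbp2. Srgn, Ctsc, Lyst and Rab27a were highest in control replicate 1, and Stx11 was highest in replicate 2 and lowest in replicate 3. In the knockout, Lamp1, Nkg7, Ctsw, Unc13d and Stxbp2 were highest in replicate 2, while Srgn, Ctsc, Rab27a and Stx11 were lowest there. In both genotypes, then, replicate 2 was the highest array for 5 genes of membrane, protease and priming proteins. It lay below replicate 1 for Srgn, Ctsc, Rab27a and Lyst. Some margins were small, as for Nkg7 in the knockout (11.81 in replicate 2 and 11.80 in replicate 1). The labels do not pair replicate numbers between the genotypes. Control replicates 1 and 2 were also the arrays furthest apart in Xist and Eif2s3y (9.65 and 3.89, and 2.33 and 7.95). Among the controls, Xist was lowest and Eif2s3y highest in replicate 2. In the knockout this held for replicate 1 instead (7.56 and 7.88). The part of these transcripts in the order was not tested. The mean over the 10 genes was 8.33, 8.20 and 8.27 in knockout arrays and 8.24, 8.31 and 8.17 in control arrays, so opposite deviations nearly cancelled in the mean.

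**Figure D3:**
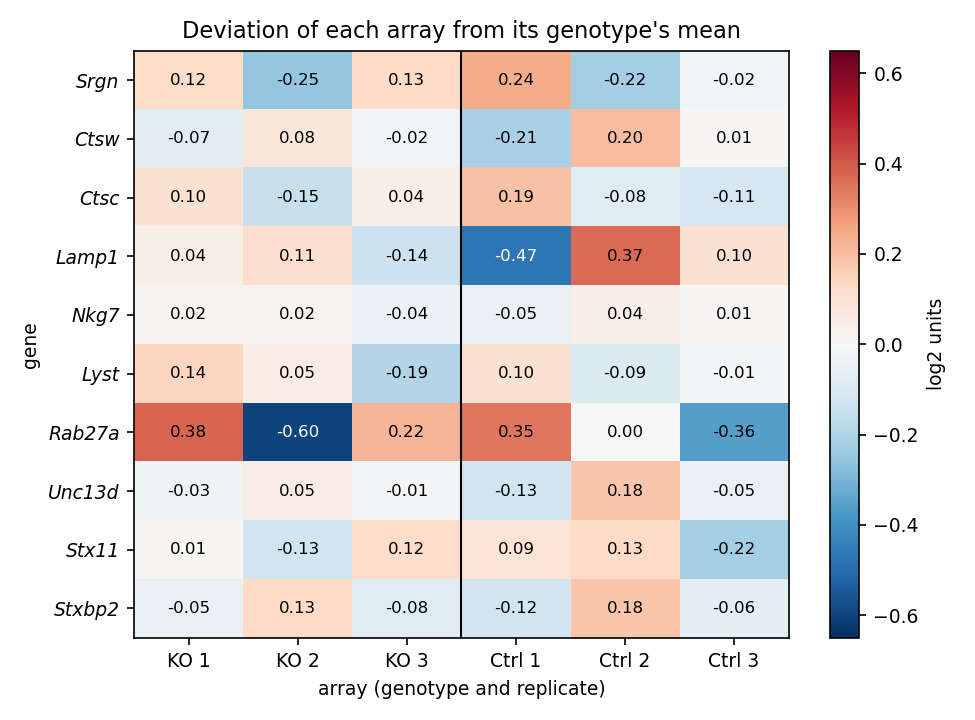
Deviation of each array (columns, knockout left of the line and control right of it) from the mean of its genotype, in log2 units, for the 10 granule genes (rows). Lamp1 deviates most in control replicate 1 (-0.47) and Rab27a in knockout replicate 2 (-0.60), and the signs in replicate 2 split the genes in both genotypes.

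The genes around the granule were examined as lists of the pathway. Over 7 lists with 132 measured genes, 0 rose and 0 fell past the threshold, against 0.0201% of all genes tested, and 4 had an unadjusted limma p under 0.05, against 3.47% of all genes. Differences were positive for 56 of these genes and negative for 76, and their median was -0.02 beside -0.01 over all genes. Knockout and control arrays were fully separated in 8 of 132, against 8.33% of all genes.

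Relatives of the granule genes and an inhibitor were read beside them. Rab27b, the paralog of Rab27a, differed by 0.10 (SE 0.15) and Unc13b, a relative of Unc13d that measured under 4.13 in both genotypes, by 0.01 (SE 0.14). Lamp2, the second major lysosomal membrane glycoprotein, differed by -0.11 (SE 0.16) and Stxbp3, a Munc18 relative, by -0.09 (SE 0.19). Cst7 encodes cystatin F, an inhibitor of cathepsin C within granules. It was at 9.50, 9.70 and 9.52 in knockout arrays, against 9.59, 9.76 and 9.55 in control arrays, with a difference of -0.06 (SE 0.14). The limma adjusted p was 0.999 for all 5.

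Granule transport along microtubules was covered by 11 genes, 4 with positive and 7 with negative differences and a median of -0.03. The smallest unadjusted p-values belonged to Rilp, which links RAB7 to the dynein motor (-0.21, SE 0.18, under 4.13 in both genotypes), the late endosomal GTPase Rab7 (0.18, SE 0.18) and the kinesin light chain Klc1 (-0.11, SE 0.15). None of the 11 had an unadjusted limma p under 0.05.

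Docking, priming and SNARE genes numbered 26, 10 of them with a positive and 16 with a negative difference, and a median of -0.04. The secretory GTPase Rab3d was at 4.76, 4.83 and 4.75 in knockout arrays, against 5.71, 5.12 and 4.82 in control arrays. Control replicate 1 stood highest, and the difference of -0.44 had an SE of 0.21 (limma unadjusted p = 0.0675, adjusted p = 0.999). Stx6, a syntaxin of the trans-Golgi network, was at 5.27, 5.13 and 5.16 in knockout arrays, against 4.97, 5.06 and 4.77 in control arrays, without overlap (0.26, SE 0.14, limma adjusted p = 0.999). Snap29 differed by -0.24 (SE 0.16). Snap23, a plasma membrane SNARE that was named after its values were seen, was the only other gene of the list without overlap, with a difference of -0.16 (SE 0.13).

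Genes of lysosome-related organelle biogenesis and sorting numbered 31, 15 of them with a positive and 16 with a negative difference, and a median of 0.00. Bloc1s6, named after its values were seen, was the 1 gene of the list without overlap (0.15, SE 0.13). The lysosomal transcription factor Tfe3 differed by 0.31 (SE 0.20), the adaptor subunit Ap3b1, mutated in pearl mice, by -0.28 (SE 0.21) and the BLOC-1 subunit Bloc1s3 by 0.21 (SE 0.16), all with overlapping arrays and a limma adjusted p of 0.999. The largest difference of the list, named after its value was seen, was that of Cd63, a tetraspanin of lysosomes and granules, at 0.64 (SE 0.57). Cd63 was at 3.04, 3.65 and 5.28 in knockout arrays, against 2.29, 4.03 and 3.73 in control arrays. Knockout replicate 3 alone lay above all controls, and the mean of each genotype was under 4.13.

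Lysosomal proteases and their inhibitors numbered 17, with 6 positive and 11 negative differences and a median of -0.02. Ctss, a cathepsin abundant in antigen-presenting cells, was at 7.25, 6.57 and 7.37 in knockout arrays, against 7.15, 7.72 and 7.69 in control arrays (-0.46, SE 0.24). Ctsb, on chromosome 14 like the deleted locus, differed by -0.30 (SE 0.15) and the tripeptidyl peptidase Tpp1 by 0.37 (SE 0.20). The limma adjusted p was 0.999 for all 3. Markers of macrophages, monocytes and dendritic cells stood beside them at a median difference of 0.02 over 11 genes, with 7 of 11 averaging at or under 4.13. Their mean level was between 4.24 and 4.38 in knockout arrays and between 4.22 and 4.44 in control arrays.

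Enzymes that build chondroitin sulphate, the chain carried by serglycin, numbered 19, with 9 positive and 10 negative differences and a median of -0.01. Chst12, a chondroitin 4-O-sulphotransferase, was at 6.46, 6.30 and 6.63 in knockout arrays, against 6.66, 7.04 and 6.81 in control arrays. The genotypes did not overlap, and the difference was -0.37 (SE 0.16, limma unadjusted p = 0.04, adjusted p = 0.999). Outside the granzymes, Chst12 was the only gene of the 7 lists with an unadjusted limma p under 0.05. The xylose kinase Fam20b differed by -0.27 (SE 0.20) and the synthase Chsy3, under 4.13 in both genotypes, by 0.17 (SE 0.14).

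Actin genes of the lytic synapse numbered 17, with 8 positive and 9 negative differences and a median of 0.00. Was, the actin regulator mutated in Wiskott-Aldrich syndrome, was at 6.74, 6.86 and 6.96 in knockout arrays, against 7.14, 7.08 and 6.99 in control arrays, without overlap (-0.22, SE 0.13, limma adjusted p = 0.999). Cdc42, the GTPase that activates it, differed by 0.21 (SE 0.17) and its partner Wipf1 by 0.17 (SE 0.16). The granzymes and perforin, the contents that these genes store and release, had 4 positive and 7 negative differences among 11 genes. Gzma differed by -0.02 (SE 0.13), Gzmb by -0.50 (SE 0.17), Gzmk by 0.53 (SE 0.16), Gzmc by -0.74 (SE 0.14, under 4.13 in both genotypes) and Prf1 by -0.14 (SE 0.17), with limma adjusted p-values of 0.842 for Gzmc and 0.999 for the other 4. Of the 11 genes, 3 had an unadjusted limma p under 0.05, against 3.47% of all genes, namely Gzmc (0.000423), Gzmk (0.00843) and Gzmb (0.0149). The same 3 of 11 had no overlap between the genotypes, against 8.33% of all genes. Gzmb and Gzmc lie on chromosome 14, as does the deleted locus, while Gzmk lies on chromosome 13. The part of this location in their differences was not tested. Of the 11 genes, 6 averaged at or under 4.13.

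**Figure D4:**
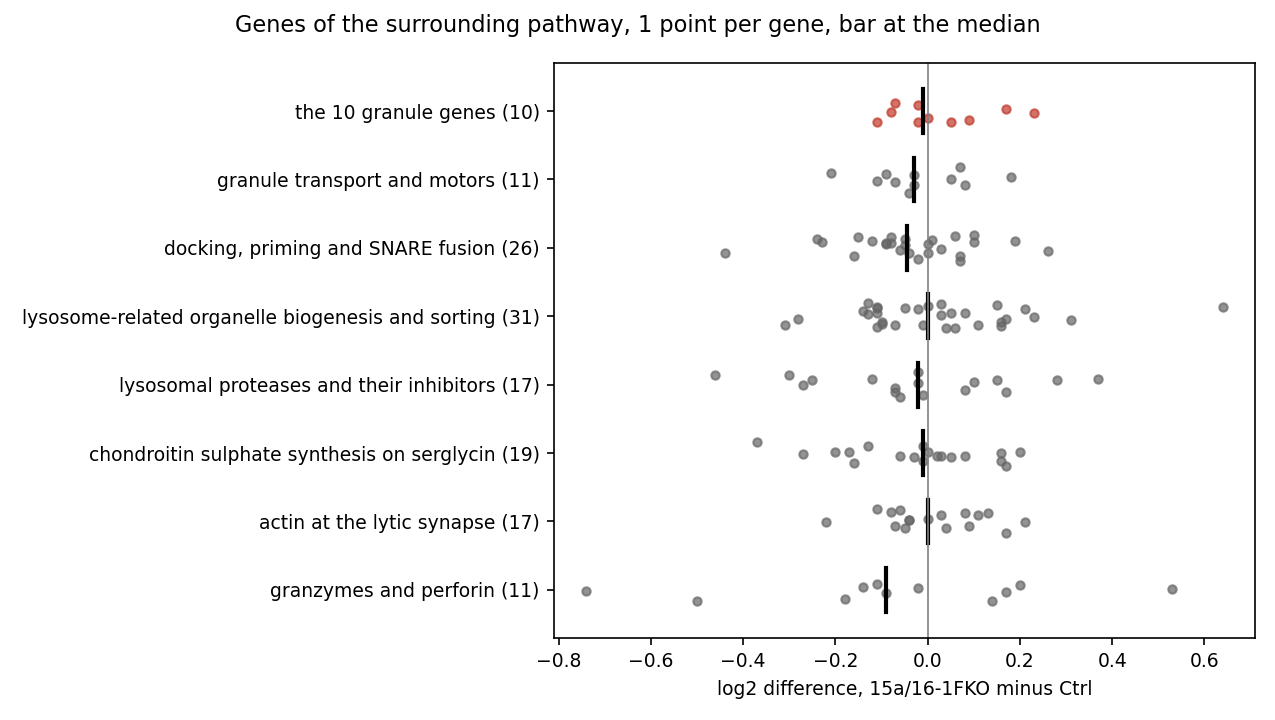
Log2 difference, knockout minus control, of the 10 granule genes (red, top) and of 7 lists of pathway genes (grey), 1 point per gene, with the number of genes in parentheses and a black bar at each median. Medians lie between -0.09 for granzymes and perforin and 0.00, and 0 of the genes passed the threshold.

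Markers of the cells sorted and of other cells were read beside the granule genes, several of which are also expressed in T cells, myeloid cells, mast cells or platelets. All 10 NK cell markers were above 4.13, with 9 positive differences and 1 negative, against 47.9% positive over all genes, a range from -0.03 to 0.20 and a median of 0.05. None of the 10 passed the threshold or had an unadjusted limma p under 0.05. The sort genes Klrb1c (NK1.1) and Cd27 differed by 0.01 (SE 0.13) and 0.09 (SE 0.18). Over 56 markers of 7 other cell types, 0 rose and 0 fell past the threshold, 28 differences were positive and 28 negative, and 31 genes averaged at or under 4.13. An unadjusted limma p under 0.05 was reached by 3 of 56, against 3.47% of all genes, and 6 of 56 had no overlap, against 8.33%.

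By cell type, median differences were 0.04 over 8 T cell and 0.04 over 7 B cell markers, 0.01 over 10 neutrophil and 0.03 over 10 mast cell and basophil markers, and -0.11 over 7 platelet and -0.10 over 3 erythroid markers. The mast cell list held Kit, which immature NK cells also express and which was at 7.73, 7.78 and 7.56 in knockout arrays, against 6.73, 7.27 and 6.99 in control arrays, without overlap (0.69, SE 0.17, limma unadjusted p = 0.00213, adjusted p = 0.999). Of that list 7 of 10 genes averaged at or under 4.13. The neutrophil gene S100a8 was at 8.09, 7.35 and 8.08 in knockout arrays, against 7.29, 7.61 and 6.30 in control arrays, with overlap (0.77, SE 0.32, limma unadjusted p = 0.0407, adjusted p = 0.999). Its list had 5 positive and 5 negative differences, from -0.55 to 0.77, and 4 of its 10 genes averaged at or under 4.13. The platelet gene Gp5 was at 3.36, 3.45 and 3.31 in knockout arrays, against 3.84, 3.66 and 3.69 in control arrays, without overlap and under 4.13 on all 6 (-0.36, SE 0.13, limma unadjusted p = 0.0228, adjusted p = 0.999). Although the cells were sorted as CD3-, transcripts of the CD3 chains were above 4.13, with Cd3d at 7.41 in knockout and 7.25 in control arrays and Cd3e at 6.24 in knockout and 6.43 in control arrays (means of 3). Cd8a was under 4.13 on all 6 arrays, and 5 of the 8 T cell markers averaged at or under 4.13. The part of these markers in the values of the granule genes was not tested.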

How the data were processed

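The values deposited by the authors are log2 expression levels of 35556 probe sets on 6 arrays, between 0.74 and 13.6. RMA and Partek 6.6 appear, without their roles, per the submitters' processing notes. RMA quantile-normalizes arrays and compresses the differences of dim probe sets. No genome build of the files was given. Gene symbols came from GEO's platform annotation (1 symbol for 21789 probe sets, several for 1621, and 12146 not listed), and 0 of them changed when checked by Entrez identifier against the GRCm38.p6 gene table. A gene was represented by its probe set with the highest mean, without a filter on low values.

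Knockout minus control was fitted with limma 3.58.1 in R 4.3.3 (lmFit, eBayes, two-sided, genotype only), adjusted over 19938 genes with a threshold of 0.05, and the fit was tested on simulated data. The changes planted there were larger than any difference of a granule gene, so that test does not bear on differences of this size. Genes named are all members, the 3 genes of each pathway list with the smallest p, relatives of members, and some of the markers with the smallest p or the highest level of their list. Mir15a, Mir16-1 and Myb were named as a check of the labels, and Xist, Eif2s3y and Uty as sex-linked transcripts. Myb differed by 0.22 (SE 0.13, limma unadjusted p = 0.124, adjusted p = 0.999), with knockout arrays higher without overlap. Genes said to be named after their values were seen, and Cd27, Klrb1c and Cd3e, lie outside this rule. Members and lists were chosen with earlier results of these data known. The alternatives were 2 further normalizations, a filter on dim genes, a block for the replicate number, another prior (trended and robust), array weights, the mean of probe sets, all probe sets tested, and each array left out.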

Additional observations from a re-analysis of the deposited data

How the results depend on the processing

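Under 14 alternatives, 0 of the 10 granule genes passed the threshold by limma, and likewise 0 pathway genes and 0 markers of other cell types. The lowest adjusted p of a granule gene was 0.991. In a fit with a replicate block the count of granule genes past the threshold was 0 and no call changed. In this balanced design a block cannot move a difference, so the median stayed at -0.01 by construction. The deviations of same-numbered arrays correlated with r = 0.05, 0.15 and 0.14, and each knockout array correlated best with its own number. These correlations were small and were not tested. The labels state no pairing, so none was concluded. The median difference of -0.01 ranged from -0.02 to 0.07 with 1 array left out, the highest being without Ctrl replicate 2. The sign of 125 of 140 single differences was kept, and the other 15 all came from leaving out 1 array, which leaves 2 arrays in a genotype. The dim-gene filter, the block, the other prior, the mean of probe sets and the test of all probe sets leave single differences unchanged. Each granule gene had 1 probe set, so the signs kept there were fixed in advance. Subtracting array medians moved every gene alike. Lyst, Unc13d and Nkg7 kept a positive sign throughout. The ranges with 1 array left out were -0.06 to 0.36 for Lamp1, -0.27 to 0.22 for Rab27a, -0.13 to 0.04 for Stx11, -0.08 to 0.07 for Stxbp2, -0.10 to 0.10 for Ctsw, -0.12 to 0.03 for Ctsc and -0.22 to 0.02 for Srgn.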
